A study of Rattus norvegicus with 12 samples.

Results

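DNA replication and nucleotide supply genes were examined in primary rat hepatocytes exposed to triclosan or to related diphenyl ethers. The set holds 45 genes chosen by name for their function, with earlier results of these data known. Its genes license replication origins, activate the replicative helicase, copy DNA at the fork, supply deoxynucleotides, start S phase or copy chromatin. Probes were matched to them through the RefSeq transcript that the array annotation names, and a gene was read from its brightest probe among those that the scanner software marked as well above background in every array of some group. Of the 45 genes, 42 had a matched probe and 38 passed this filter, among 20359 genes or transcripts tested in all. The 3 genes without a matched probe were Mcm5, Uhrf1 and Chaf1a, and the 4 whose probe did not pass were Orc1, Pola1, Pole2 and Dnmt1.

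The study compared 4 groups of 3 arrays each: hepatocytes given triclosan, hepatocytes given diclosan, hepatocytes given CCPB, which is 1-chloro-3-(4-chlorophenoxy) benzene, each compound at 30 µM, and hepatocytes given the vehicle DMSO, all sampled after 24 h of exposure that followed 24 h of pre-culture. All groups shared cryopreserved hepatocytes of male Sprague Dawley rats bought from 1 supplier. The design text calls the 3 cultures of a condition independent experiments, and it does not say whether they came from different rats or lots, so p-values measure the spread between these samples. Triclosan, an antibacterial agent, and diclosan both carry a phenolic hydroxyl group and diclosan lacks a chlorine atom of triclosan, whereas CCPB has no hydroxyl group and bears one of its chlorines at the meta instead of the para position of the ether.

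Before S phase the origin recognition complex, Cdc6 and Cdt1 load the ring-shaped Mcm2 to Mcm7 helicase onto DNA, a step called licensing that geminin (Gmnn) restrains. Cyclin E with its kinase and the E2f transcription factors then drive entry into S phase, Cdc45 and the GINS complex switch the helicase on, and DNA polymerases held by the sliding clamp Pcna copy both strands while ribonucleotide reductase supplies the deoxynucleotides. Hepatocytes of the adult liver rarely divide, and these genes are known as a group that is switched on when hepatocytes re-enter the cell cycle, as in the regenerating liver.

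Expression is given throughout as a log2 level, the log2 of the processed spot intensity minus the 75th percentile of the same array, so that 0 is the 75th percentile. Levels of different genes come from different probes and were not set against each other. Between 51.6% and 55.5% of the probes of an array were above background and 0 spots were saturated. Hybridisation had used 2 slides, with the 3 triclosan arrays, 2 of the diclosan arrays and the 3 DMSO arrays on slide 1 and diclosan replicate 3 and all 3 CCPB arrays on slide 2. No slide held both CCPB and DMSO, so CCPB results come a second time from a model that adds the slide as a block, whose slide step is estimated from the diclosan arrays alone. Of 8 listed hepatocyte markers 8 passed the filter, with albumin (Alb) at levels between 8.32 and 8.47 on all 12 arrays.

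Many replication genes are read from promoters that bind E2f factors, so the promoters of the 4 genes with the smallest p-values for CCPB against DMSO among those with an entry in the promoter table are shown. They are RefSeq promoters of the rat build GRCr8, 250 bases before to 50 bases after the start site, written 5′ to 3′ along the gene. Capitals mark the E2F words TTGGCGC or the variant TTCCCGC or the variant TTCGCGC or the variant TTGCCGC, and the NF-Y word CCAAT, each searched on both strands. Mcm3 (chr9:30733697-30733996, minus strand) held 2 E2F words and 3 CCAAT words.
Mcm3: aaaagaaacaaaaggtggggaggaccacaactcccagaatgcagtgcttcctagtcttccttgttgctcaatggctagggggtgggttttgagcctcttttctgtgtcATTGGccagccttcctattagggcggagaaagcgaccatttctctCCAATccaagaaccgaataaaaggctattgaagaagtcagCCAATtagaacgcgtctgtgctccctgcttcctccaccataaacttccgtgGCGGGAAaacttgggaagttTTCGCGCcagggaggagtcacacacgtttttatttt
Cdc45 (chr11:95689928-95690227, plus strand) held 0 of the E2F words and 4 CCAAT words.
Cdc45: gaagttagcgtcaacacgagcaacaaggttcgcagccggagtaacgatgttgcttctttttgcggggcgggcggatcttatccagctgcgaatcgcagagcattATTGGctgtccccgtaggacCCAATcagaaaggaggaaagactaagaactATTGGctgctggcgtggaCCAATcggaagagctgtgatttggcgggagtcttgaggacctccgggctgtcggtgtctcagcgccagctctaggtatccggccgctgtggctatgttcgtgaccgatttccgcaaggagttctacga
Mcm7 (chr12:22163129-22163428, minus strand) held 4 E2F words and 3 CCAAT words, with a pair of the E2F words overlapping each other and a CCAAT word.
Mcm7: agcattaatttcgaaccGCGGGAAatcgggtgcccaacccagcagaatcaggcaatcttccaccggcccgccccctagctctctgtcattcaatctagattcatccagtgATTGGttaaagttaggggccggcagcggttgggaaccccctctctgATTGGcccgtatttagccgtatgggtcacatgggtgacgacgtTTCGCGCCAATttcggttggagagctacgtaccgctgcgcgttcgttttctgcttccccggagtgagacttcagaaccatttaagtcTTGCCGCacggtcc
Ccne1 (chr1:99927860-99928159, minus strand) held 0 words of either kind and had a GC content of 73.3%.
Ccne1: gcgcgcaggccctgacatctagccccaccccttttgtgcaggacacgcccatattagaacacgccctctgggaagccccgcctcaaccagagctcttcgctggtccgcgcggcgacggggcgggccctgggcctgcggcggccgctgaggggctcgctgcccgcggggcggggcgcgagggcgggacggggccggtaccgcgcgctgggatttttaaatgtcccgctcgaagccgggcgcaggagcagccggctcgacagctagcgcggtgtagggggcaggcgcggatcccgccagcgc

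Of the 45 genes, 38 had an entry in the promoter table, and Mcm4, Cdc6, Orc1, Gins4, Rrm2, Ccne2 and E2f1 had none. At least 1 E2F word stood in 27 of these 38 promoters (71.1%), against 9.52% of the 33469 promoters of the table. CCAAT stood in 60.5% of them, against 37.5% of all promoters. The word TTTGAA, the core of the CHR element of many mitotic genes, stood in 7.89% of them, against 18.3% of all promoters. The replication gene promoters were also richer in G and C, with a median of 59.7% against 51.7% over the table. An E2F word stood in 17 of the 22 promoters of genes lower with CCPB than with DMSO (77.3%) and in 5 of the 10 promoters of tested genes that did not pass (50%). A match is a run of letters and not a shown binding site. Only the listed E2F words were searched, so a promoter without them, as for Cdc45 and Ccne1, is not shown to lack an E2F site.

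In the model by group, most of the tested replication genes were lower in CCPB-treated than in DMSO-treated hepatocytes. In nucleotide supply 2 of 5 were lower, and chromatin assembly was read from Chaf1b alone. Of the 38 tested genes, 27 were lower with CCPB and 0 were higher (limma, Benjamini-Hochberg adjusted p under 0.05 over all genes), while 14.2% of all 20359 genes were lower and 14.1% higher. Because the set was chosen with earlier results of these data known, these shares are no independent test of it. The median difference of the 38 genes was -0.39 on the log2 scale, against 0.0039 over all genes, and 37 of the 38 lay below 0. The deepest differences were those of Cdc6, Pclaf, Rrm2 and Cdc45, the 4 genes that were called and at least 2-fold lower; among all 20359 genes they ranked 16, 25, 31 and 85 from the lowest difference. The probe of Cdc6 was above background on 2 of the 3 CCPB arrays, so its difference and rank rest partly on a value near background. On the arrays themselves, all 3 CCPB values lay below all 9 other values in 29 of the 38 genes, which held for 10.8% of all genes, and below all 3 DMSO values in 31 of them, which held for 24.2% of all genes. In bulk samples, fewer cells of a type and less RNA per cell cannot be told apart.

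With the slide as a block, 13 of the 38 genes were lower and 0 higher, against 1.79% of all genes lower and 1.63% higher. These 13 were Mcm2, Mcm3, Mcm4, Mcm7, Cdc45, Gins1, Pold1, Pclaf, Rrm2, Ccne1, Ccne2, E2f1 and Chaf1b, all of them also called without the block. The median difference was -0.33 with the block, and 37 of the 38 genes again lay below 0, with Cdt1 as the exception in place of Tyms. Diclosan replicate 3 shared slide 2 with the CCPB arrays, and all 3 CCPB values lay below it in 35 of the 38 genes, which held for 33.7% of all genes. It stood above the CCPB mean by a median of 0.29 log2 units over the 38 genes and 0.0066 over all genes. The same array differed from the other 2 diclosan arrays, on slide 1, by a median of -0.023 over the 38 genes, with 21 of the 38 below 0. Over all genes this median was -0.0072, with 51.8% below 0. Single genes stepped by more, from -0.86 for Cdt1 to 0.83 for Pclaf. The median absolute difference over all genes was 0.114 and 0.113 from diclosan replicates 1 and 2, against 0.0657 between those 2.

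**Figure D1:**
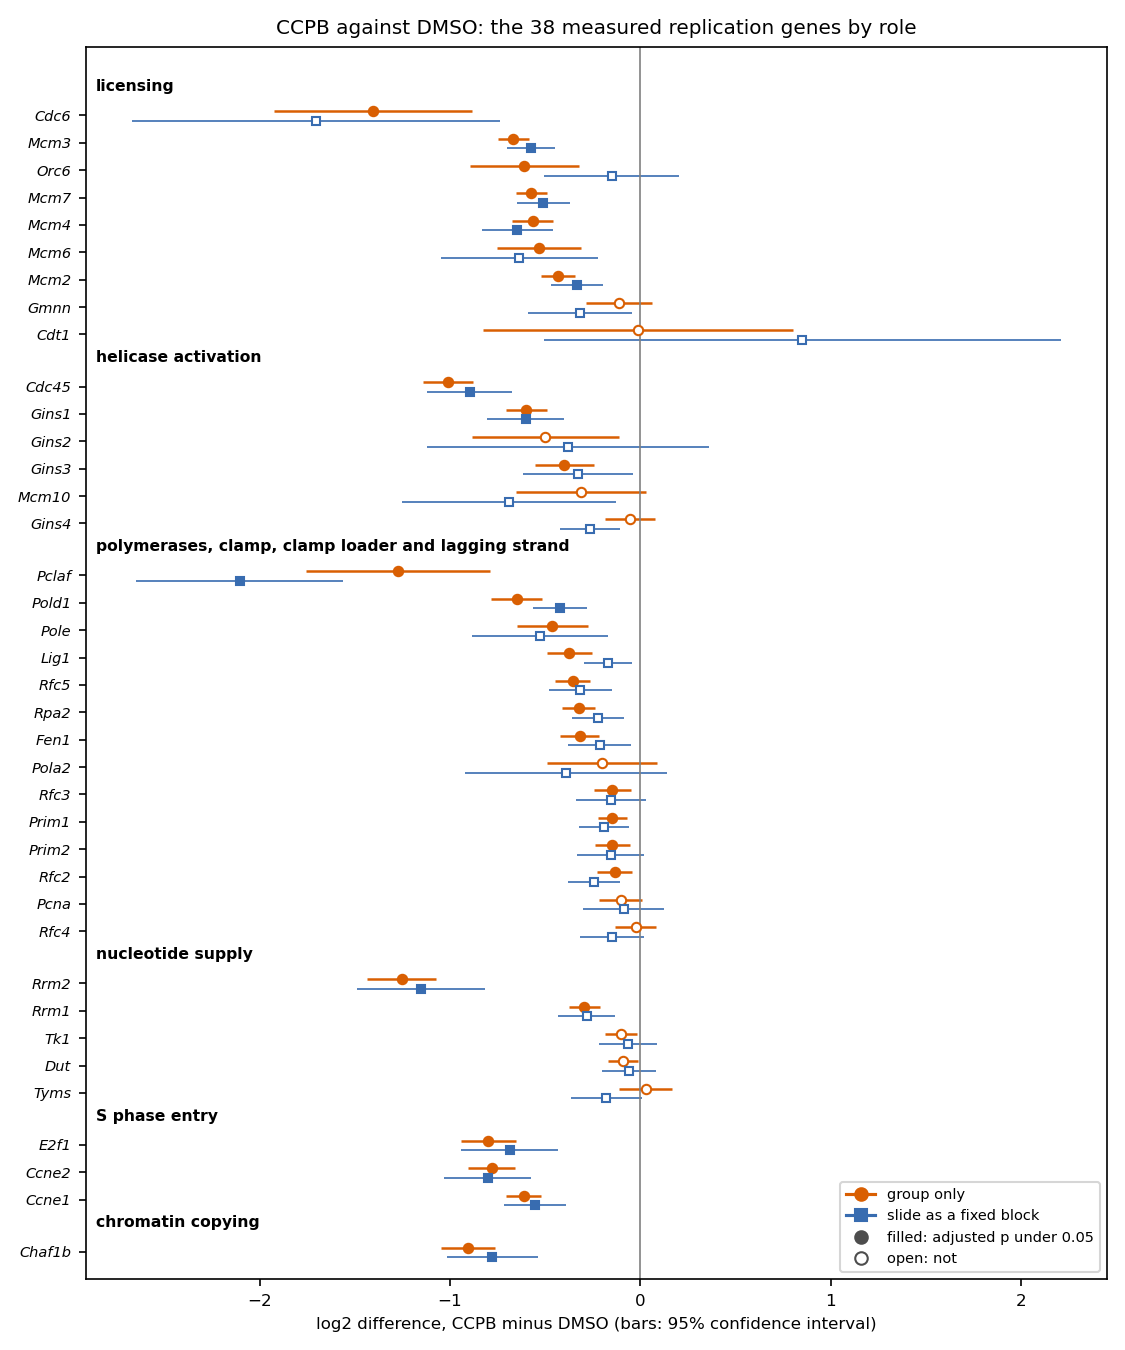
The log2 difference of CCPB minus DMSO in the 38 tested replication genes, grouped by role, with 95% confidence intervals. Circles are the model by group and squares the model with the slide as a fixed block, filled where the adjusted p was under 0.05. Of the 38 genes, 37 lie below 0 in each model, and 27 circles and 13 squares are filled.

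Markers of other liver cells were read on the same arrays as summed linear levels, with the 75th percentile of an array as 1. The stellate cell and fibroblast markers (6 of 9 measured) summed to 12.7 to 13.7 with triclosan, 12.7 to 14.8 with diclosan, 9.04 to 10 with CCPB and 14 to 15.3 with DMSO. Most of this sum was Tagln, a smooth muscle actin-binding protein, whose levels were 3.02, 2.88 and 2.83 with CCPB and 3.74, 3.53 and 3.62 with DMSO. Tagln was lower with CCPB (limma log2 difference -0.72, adjusted p = 0.000142; -0.59 with the slide block, adjusted p = 0.0376). Acta2, smooth muscle actin, was higher by 0.42 (limma adjusted p = 0.0356) and did not pass with the slide block (0.29, adjusted p = 0.575), and the defining markers Pdgfrb, Dcn and Lrat did not pass the filter. The 4 of 10 measured macrophage markers summed to 0.771 to 1.03 with triclosan, 1.04 to 1.19 with diclosan, 0.928 to 1.05 with CCPB and 0.718 to 0.996 with DMSO, so that diclosan held the highest sums. The 4 of 8 measured endothelial markers summed to 7.56 to 8.14 with triclosan, 8.06 to 9.7 with diclosan, 9.48 to 9.83 with CCPB and 8.15 to 8.6 with DMSO. Vwf, the von Willebrand factor of endothelial cells, had a level of 3.23 on diclosan replicate 3, within the CCPB values of 3.24, 3.19 and 3.19 on the same slide, and its difference of 0.21 between CCPB and DMSO (limma adjusted p = 0.0393) was -0.026 with the slide block (adjusted p = 0.908). The 3 of 6 measured cholangiocyte markers summed to 2.78 to 3.24 with triclosan, 2.79 to 3.05 with diclosan, 3.5 to 3.56 with CCPB and 2.77 to 2.96 with DMSO. Of these 3, Epcam (0.33) and Sox9 (0.28) were called higher with CCPB than with DMSO (limma; 14.1% of all genes higher), and Krt7 (-0.022) was not called. With the slide block 0 of the 3 passed. The 8 hepatocyte markers summed to 1890 to 1950 with CCPB and 1860 to 1970 with DMSO. Of these 8, Apoa1 (0.14) and Hnf4a (0.15) were called higher with CCPB than with DMSO and 1 was called lower (limma). Of all genes 14.1% were higher and 14.2% lower, and 0 of the 8 passed with the slide block. The macrophage markers Cd163, C1qa and Csf1r, the endothelial markers Pecam1, Stab2 and Lyve1 and the cholangiocyte markers Krt19, Spp1 and Cftr had probes that did not pass the filter in any group. The part of these markers in the replication gene differences was not tested.

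Among the licensing genes, 7 of the 9 tested were lower with CCPB than with DMSO and 4 of them also with the slide block. Of all genes, 14.2% were lower without the block and 1.79% with it, the shares beside which the counts of every role stand. Mcm3, a subunit of the helicase ring, had levels of 1.39, 1.44 and 1.46 with CCPB, 2.04, 2.01 and 2.05 with triclosan, 2.03, 2.01 and 1.93 with diclosan and 2.06, 2.13 and 2.11 with DMSO. All 3 CCPB values lay below the 9 others, and the other 3 groups lay within a narrow band. Mcm3 was 1.59-fold lower with CCPB, a log2 difference from DMSO of -0.67 with a 95% interval of -0.75 to -0.58 (limma adjusted p = 1.26e-05), and its difference was -0.58 under the slide block (adjusted p = 0.00493). Mcm7, another ring subunit, had levels of 1.45, 1.49 and 1.48 with CCPB, 1.97, 1.898 and 1.93 with triclosan, 1.999, 1.904 and 1.89 with diclosan and 2.03, 2.04 and 2.06 with DMSO. Here too the CCPB arrays stood apart, and the DMSO arrays were the highest. Mcm7 was 1.49-fold lower than with DMSO (-0.57, limma adjusted p = 1.75e-05; -0.51 with the slide block, adjusted p = 0.00584).

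Mcm4, also of the ring, had levels of 0.76, 0.74 and 0.74 with CCPB, 1.19, 1.27 and 1.33 with triclosan, 1.24, 1.15 and 1.28 with diclosan and 1.25, 1.35 and 1.34 with DMSO. The 3 CCPB values were close together and below all others, while the remaining groups overlapped. Its difference of -0.57 (95% interval -0.67 to -0.46; limma adjusted p = 6.13e-05) became -0.65 with the slide block (adjusted p = 0.00726), and all 3 of its probes were lower with CCPB when each was tested on its own. The dimmest of these 3 did not pass with the slide block (-0.505, limma adjusted p = 0.285). Mcm2, a ring subunit that also binds histones at the fork, had levels of 2.05, 2.16 and 2.12 with CCPB, 2.46, 2.43 and 2.47 with triclosan, 2.46, 2.48 and 2.37 with diclosan and 2.53, 2.54 and 2.56 with DMSO. CCPB was lowest and DMSO highest, with triclosan and diclosan overlapping between them. Mcm2 was 1.35-fold lower with CCPB than with DMSO (-0.43, limma adjusted p = 9.83e-05; -0.33 with the slide block, adjusted p = 0.0228). The last measured ring subunit, Mcm6, differed by -0.53 (limma adjusted p = 0.00427) and by -0.64 with the slide block, where it did not pass (adjusted p = 0.104).

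Cdc6, the loader that brings the ring to the origin, had levels of -4.76, -5.26 and -4.295 with CCPB, -3.53, -3.76 and -3.52 with triclosan, -3.26, -3.94 and -3.302 with diclosan and -3.33, -3.44 and -3.32 with DMSO. The CCPB values were the lowest and also the most spread, and 2 of the 3 were above background, against 3 of 3 in each other group. The difference of -1.41 (95% interval -1.93 to -0.89; limma adjusted p = 0.00242) was -1.703 with the slide block and did not pass there (adjusted p = 0.0696). Orc6, a small subunit of the origin recognition complex, differed by -0.61 (limma adjusted p = 0.0078), and by -0.15 with the slide block (adjusted p = 0.674). On slide 2 its level in diclosan replicate 3 was -3.25, between the CCPB values of -3.45, -3.497 and -3.51 and the 2 other diclosan values of -2.78 and -2.80.

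Both remaining tested licensing genes did not pass. Cdt1, which works with Cdc6 to load the ring, had levels of -4.81, -4.85 and -4.78 with CCPB, -4.799, -6.43 and -5.24 with triclosan, -4.25, -4.17 and -5.07 with diclosan and -4.797, -4.92 and -4.68 with DMSO. It was above background on 8 of 12 arrays and passed the filter through the CCPB arrays alone, the groups overlapped, and triclosan held the lowest value. Its interval for CCPB minus DMSO ran from -0.82 to 0.80, too wide to show a difference of the size seen in the ring genes. Geminin (Gmnn) had levels of -1.43, -1.56 and -1.53 with CCPB, -1.35, -1.23 and -1.28 with triclosan, -1.27, -1.43 and -1.14 with diclosan and -1.297, -1.51 and -1.37 with DMSO. CCPB held the lowest values, with an overlap with DMSO (difference -0.11, 95% interval -0.29 to 0.061; limma adjusted p = 0.303).

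Of the 6 helicase activation genes, 3 were lower with CCPB than with DMSO and 2 of them also with the slide block. Cdc45, which joins the Mcm ring to form the active helicase, had levels of -0.052, -0.057 and -0.103 with CCPB, 0.85, 0.897 and 0.95 with triclosan, 0.93, 0.75 and 0.72 with diclosan and 0.87, 1.01 and 0.94 with DMSO. The CCPB arrays lay far below the others, and the other groups overlapped. Cdc45 was 2.02-fold lower than with DMSO (-1.01 on the log2 scale with a 95% interval of -1.14 to -0.88; limma adjusted p = 1.29e-05), and its difference was -0.896 with the slide block (adjusted p = 0.00514). Gins1, a subunit of the GINS complex, had levels of -1.04, -1.03 and -1.03 with CCPB, -0.59, -0.57 and -0.47 with triclosan, -0.48, -0.57 and -0.52 with diclosan and -0.52, -0.35 and -0.43 with DMSO. Its 3 CCPB values were nearly equal and below all others. Gins1 differed by -0.6 without the slide block (limma adjusted p = 4.79e-05) and by -0.603 with it (adjusted p = 0.0114). The other GINS subunits were less even: Gins3 was lower by the test (-0.399, limma adjusted p = 0.00323), without passing under the slide block (adjusted p = 0.219). Gins2 (-0.498, limma adjusted p = 0.0569) and Gins4 (-0.055, limma adjusted p = 0.506) did not pass. Mcm10, a scaffold for fork assembly, had a difference of -0.31 and a wide interval of -0.65 to 0.032 (limma adjusted p = 0.155).

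At the fork, 11 of the 14 tested genes of the polymerases, clamp, clamp loader and lagging strand were lower with CCPB than with DMSO, 2 of them also with the slide block. Pold1, the catalytic subunit of the lagging strand polymerase delta, had levels of 0.44, 0.501 and 0.44 with CCPB, 1.05, 1.01 and 1.01 with triclosan, 1.01, 0.98 and 0.77 with diclosan and 1.15, 1.13 and 1.06 with DMSO. CCPB was lowest, and diclosan replicate 3, on the same slide as CCPB, lay below the other diclosan arrays. The difference of -0.65 (95% interval -0.78 to -0.52; limma adjusted p = 9.72e-05) shrank to -0.42 with the slide block and still passed (adjusted p = 0.011). Pclaf, a small protein that binds the clamp, had levels of -3.64, -4.14 and -4.06 with CCPB, -2.64, -2.48 and -2.47 with triclosan, -2.72, -3.04 and -2.05 with diclosan and -2.698, -2.58 and -2.74 with DMSO. All CCPB values lay below the rest, and diclosan replicate 3 was the highest of all 12 arrays, 0.83 above the mean of the other 2 diclosan arrays. Pclaf was 2.42-fold lower with CCPB than with DMSO (-1.27, limma adjusted p = 0.00285), and the slide block widened the difference to -2.11 (adjusted p = 0.00542).

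Smaller differences were measured in the loader and in the lagging strand enzymes. Rfc5, a subunit of the clamp loader, had levels of -0.55, -0.47 and -0.47 with CCPB, -0.13, -0.03 and -0.079 with triclosan, -0.12, -0.17 and -0.19 with diclosan and -0.094, -0.17 and -0.16 with DMSO. Rpa2, of the protein that coats single-stranded DNA, had levels of 1.47, 1.504 and 1.47 with CCPB, 1.81, 1.75 and 1.79 with triclosan, 1.85, 1.78 and 1.71 with diclosan and 1.85, 1.81 and 1.76 with DMSO. Lig1, the ligase that joins lagging strand fragments, had levels of 2.68, 2.72 and 2.71 with CCPB, 3.06, 2.97 and 3.01 with triclosan, 3.09, 3.07 and 2.88 with diclosan and 3.07, 3.102 and 3.07 with DMSO. In all 3 genes the CCPB arrays lay below the 9 others, and the other groups overlapped, except that the triclosan values of Lig1 lay below its DMSO values. Their differences were -0.35 for Rfc5, -0.32 for Rpa2 and -0.37 for Lig1, with limma adjusted p = 0.000334, 0.000479 and 0.00111 in that order. None of these 3 passed with the slide block (limma adjusted p = 0.0535, 0.0874 and 0.145). The flap nuclease Fen1 differed by -0.32 (limma adjusted p = 0.00116; 0.164 with the slide block).

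The leading strand polymerase gene Pole was lower on its brighter probe (-0.46, limma adjusted p = 0.00404; 0.115 with the slide block), while a dimmer probe of the same gene stood at 0.17 (adjusted p = 0.393 over all probes). The mean of both probes gave -0.15 (limma adjusted p = 0.249). The primase genes Prim1 and Prim2, which start each new strand, and the clamp loader genes Rfc2 and Rfc3 had called differences between -0.15 and -0.13, at most 1.11-fold. With the slide block their limma adjusted p-values were 0.119 for Prim1, 0.334 for Prim2, 0.0696 for Rfc2 and 0.361 for Rfc3. Prim2 lost its call without any single DMSO array and without CCPB replicate 1 or 3 (limma adjusted p = 0.0613 to 0.0861). Rfc2 lost it without DMSO replicate 2 or 3 and without any single CCPB array (limma adjusted p = 0.0626 to 0.118), and Rfc3 without DMSO or CCPB replicate 1 or 2 (limma adjusted p = 0.0773 to 0.106).

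The clamp itself, Pcna, had levels of 2.098, 2.18 and 2.18 with CCPB, 2.28, 2.42 and 2.42 with triclosan, 2.35, 2.304 and 2.31 with diclosan and 2.23, 2.198 and 2.34 with DMSO. All CCPB values were below the 9 others, the nearest by a small margin to DMSO replicate 2. The difference from DMSO was -0.102 with an interval of -0.22 to 0.012 and did not pass (limma adjusted p = 0.159). Neither Pola2, of the polymerase that carries primase (-0.203, limma adjusted p = 0.266), nor the clamp loader gene Rfc4 (-0.024, limma adjusted p = 0.735) passed.

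The nucleotide supply genes split: 2 of the 5 were lower with CCPB than with DMSO, and the other 3 did not pass. Rrm2, the small subunit of ribonucleotide reductase that is made mainly in S phase, had levels of 0.99, 0.71 and 0.97 with CCPB, 1.92, 2.02 and 2.04 with triclosan, 2.09, 1.88 and 1.88 with diclosan and 2.15, 2.12 and 2.16 with DMSO. CCPB lay more than a log2 unit below DMSO on every array, and triclosan and diclosan lay slightly below DMSO. Rrm2 was 2.39-fold lower with CCPB (-1.25 on the log2 scale with a 95% interval of -1.44 to -1.07; limma adjusted p = 1.84e-05), and its difference was -1.15 with the slide block (adjusted p = 0.00742). A dimmer second Rrm2 probe was lower as well (limma log2 difference -1.101, adjusted p = 0.00314 over all probes), and it did not pass with the slide block (-0.82, adjusted p = 0.256). Rrm1, the large subunit of the same enzyme, had levels of 2.24, 2.25 and 2.31 with CCPB, 2.54, 2.51 and 2.59 with triclosan, 2.57, 2.53 and 2.53 with diclosan and 2.52, 2.57 and 2.601 with DMSO. The CCPB values were again the lowest, though its difference was only -0.29 (limma adjusted p = 0.000484) and did not pass with the slide block (-0.28, adjusted p = 0.0541).

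Tyms, the thymidylate synthase, had levels of 1.24, 1.32 and 1.34 with CCPB, 1.25, 1.29 and 1.296 with triclosan, 1.18, 1.28 and 1.44 with diclosan and 1.33, 1.195 and 1.29 with DMSO. All 4 groups overlapped. The difference between CCPB and DMSO was 0.028, with an interval of -0.11 to 0.17 (limma adjusted p = 0.768). Tk1, the thymidine kinase of the salvage route, had levels of 1.71, 1.69 and 1.697 with CCPB, 1.79, 1.82 and 1.81 with triclosan, 1.74, 1.66 and 1.66 with diclosan and 1.75, 1.86 and 1.78 with DMSO. CCPB lay below DMSO on every array and overlapped with diclosan (difference from DMSO -0.099, limma adjusted p = 0.0754). A second, dimmer Tk1 probe was higher with CCPB by 0.22 (limma adjusted p = 0.0445 over all probes; 0.682 with the slide block), so that the probes of this gene disagree. Dut, which removes dUTP, differed by -0.092 (limma adjusted p = 0.0764).

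All 3 genes of S phase entry were lower with CCPB than with DMSO in both models. Ccne1, cyclin E1, had levels of 0.36, 0.45 and 0.297 with CCPB, 0.77, 0.76 and 0.79 with triclosan, 0.81, 0.77 and 0.73 with diclosan and 0.97, 0.98 and 0.99 with DMSO. The 4 groups formed 3 tiers without overlap, with CCPB lowest, triclosan and diclosan together in the middle and DMSO highest. Ccne1 was 1.53-fold lower with CCPB than with DMSO (-0.61, limma adjusted p = 2.09e-05; -0.55 with the slide block, adjusted p = 0.00742). Ccne2, cyclin E2, had levels of -1.51, -1.61 and -1.49 with CCPB, -0.83, -0.71 and -0.74 with triclosan, -0.86, -0.99 and -0.91 with diclosan and -0.84, -0.72 and -0.71 with DMSO. CCPB stood apart, and triclosan covered the same range as DMSO. Its difference of -0.78 (95% interval -0.904 to -0.66; limma adjusted p = 2.43e-05) was -0.802 with the slide block (adjusted p = 0.00726).

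E2f1, the transcription factor that activates many of these genes, had levels of -0.54, -0.61 and -0.64 with CCPB, 0.13, 0.18 and 0.16 with triclosan, 0.27, 0.004 and 0.02 with diclosan and 0.16, 0.22 and 0.24 with DMSO. The CCPB values lay below all others, and diclosan was the most spread of the other groups. E2f1 was 1.74-fold lower with CCPB than with DMSO (-0.8, limma adjusted p = 4.89e-05; -0.69 with the slide block, adjusted p = 0.0163). Chaf1b, a subunit of the chromatin assembly factor that places histones on new DNA, was the only chromatin gene tested, with levels of -0.008, 0.099 and 0.041 with CCPB, 0.75, 0.78 and 0.89 with triclosan, 0.86, 0.71 and 0.65 with diclosan and 0.87, 1.02 and 0.96 with DMSO. CCPB again lay below every other array. Chaf1b was 1.87-fold lower (-0.91, 95% interval -1.05 to -0.76; limma adjusted p = 2.43e-05; -0.78 with the slide block, adjusted p = 0.00833). The maintenance DNA methyltransferase Dnmt1 was not well above background on any of the 12 arrays, with signals between -7.39 and -6.64, and carries no comparison. Orc1 was above background on 0 arrays, Pola1 on 3 and Pole2 on 2 of the 12.

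**Figure D2:**
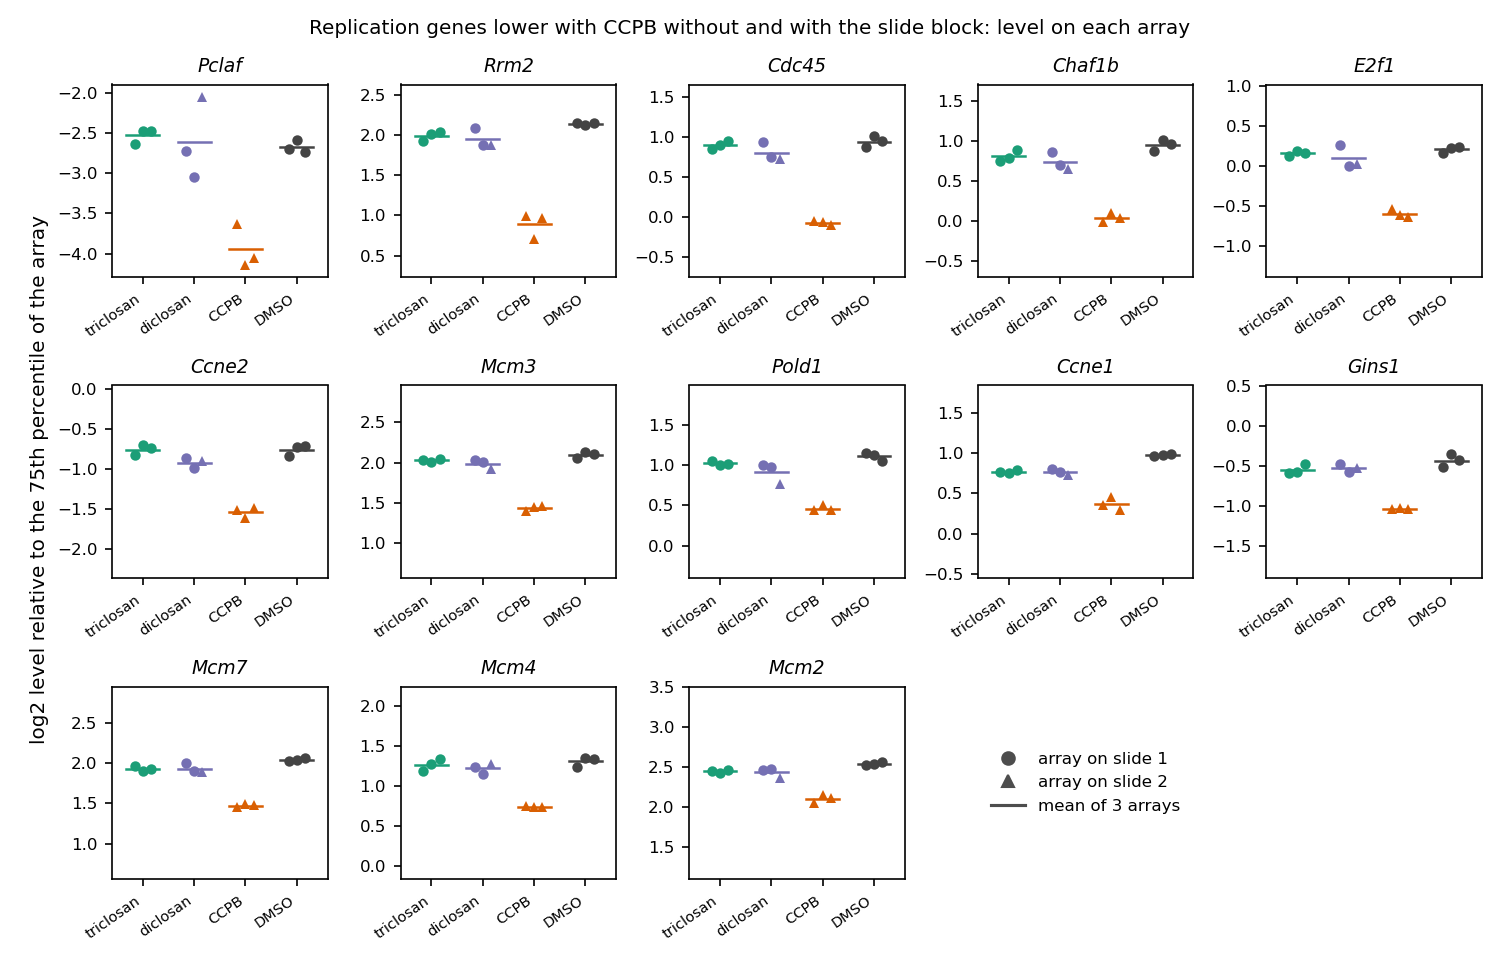
Log2 level on each array, relative to the 75th percentile of the array, for the 13 replication genes lower with CCPB without and with the slide block. Circles are arrays on slide 1, triangles arrays on slide 2 and bars group means of 3 arrays. In all 13 genes the 3 CCPB triangles lie below the other 9 arrays, including the diclosan triangle of the same slide. The genes were picked by their CCPB calls on these same arrays, so this separation is no separate evidence. Over all genes, 10.8% had all 3 CCPB arrays below the 9 others and 33.7% had them below that diclosan array.

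Averaged over the 38 genes, the levels stood at -0.46, -0.47 and -0.43 relative to the DMSO mean on the 3 CCPB arrays. The triclosan arrays lay at -0.038, -0.078 and -0.0099 and the diclosan arrays at -0.013, -0.085 and -0.053, with diclosan replicate 3 of slide 2 inside the range of the other 2. The DMSO arrays themselves lay at -0.0087, -0.017 and 0.025, so the CCPB arrays stood apart from all 9 others. By role, the median difference between CCPB and DMSO was -0.78 for S phase entry, -0.57 for licensing, -0.45 for helicase activation, -0.26 for the fork genes and -0.099 for nucleotide supply, where Rrm2 stood far from the other 4 genes. With the slide block these medians were -0.69, -0.51, -0.49, -0.22 and -0.18 in the same order.

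**Figure D3:**
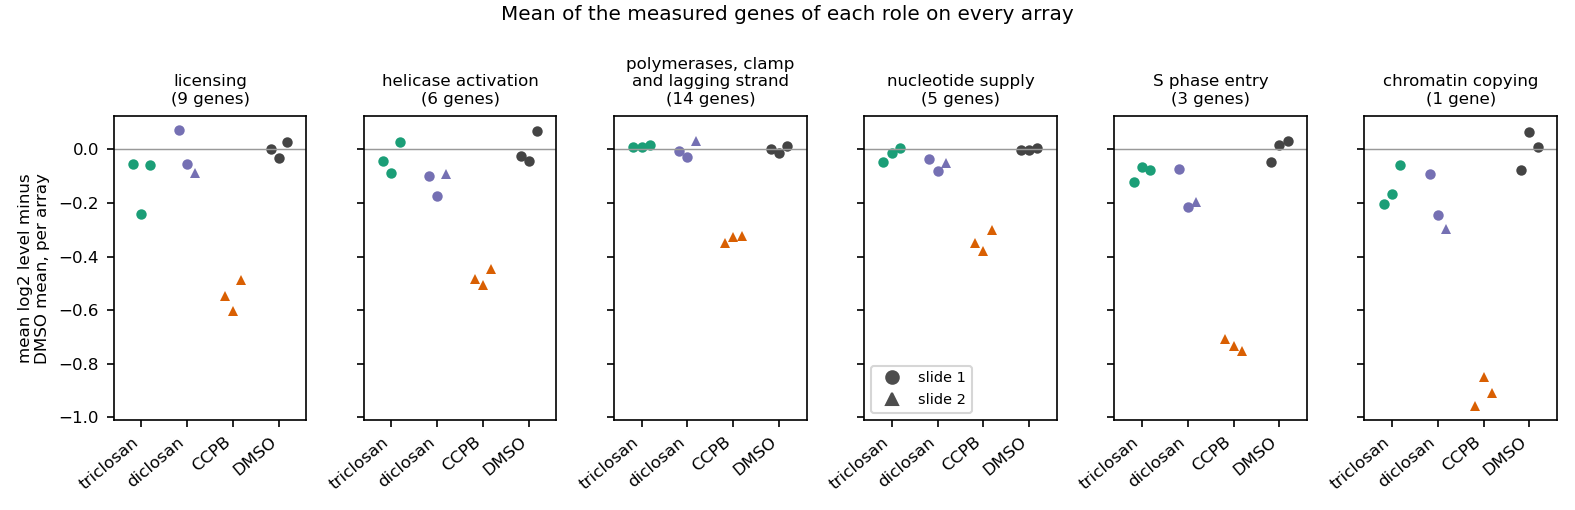
Mean log2 level of the tested genes of each role on every array, minus the DMSO mean. Circles are arrays on slide 1 and triangles arrays on slide 2. In each of the 6 roles the 3 CCPB arrays lie below the 9 others, and diclosan replicate 3, the other triangle, lies above all 3 of them in each role.

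Neither phenolic compound gave a call in the set. With triclosan, 0 of the 38 genes passed against DMSO (limma), 6 had an unadjusted p under 0.05, and 0.0639% of all 20359 genes were called, with 11.6% under the unadjusted threshold. For triclosan 0 passed with the slide block as well (limma; 5 at an unadjusted p under 0.05), against 0.221% of all genes called and 14.1% under the unadjusted threshold. Over the 38 genes the median difference for triclosan was -0.021, with 22 below 0. With diclosan, 0 of the 38 passed (limma), 10 had an unadjusted p under 0.05, and 0.00982% of all genes were called, with 10.6% under the unadjusted threshold. For diclosan 0 passed with the slide block (limma; 8 at an unadjusted p under 0.05), against 0.0147% of all genes called and 9.83% under the unadjusted threshold. The median difference for diclosan was -0.064, with 25 below 0. Both compounds had the smallest adjusted p of the set in Ccne1, at a difference from DMSO of -0.21 for triclosan (limma adjusted p = 0.105) and -0.21 for diclosan (limma adjusted p = 0.173), against -0.61 for CCPB. For Rrm2 the differences were -0.15 with triclosan (95% interval -0.33 to 0.032), -0.19 with diclosan (-0.38 to -0.013) and -1.25 with CCPB. For Cdc45 they were -0.042 with triclosan (-0.17 to 0.088), -0.14 with diclosan (-0.27 to -0.0099) and -1.01 with CCPB. For Mcm3 they were -0.067 with triclosan (-0.15 to 0.016), -0.11 with diclosan (-0.196 to -0.029) and -0.67 with CCPB. These comparisons share the DMSO arrays. The intervals for triclosan and diclosan in these genes do not reach the values of CCPB, and a difference that missed the threshold is not shown to be 0.

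**Figure D4:**
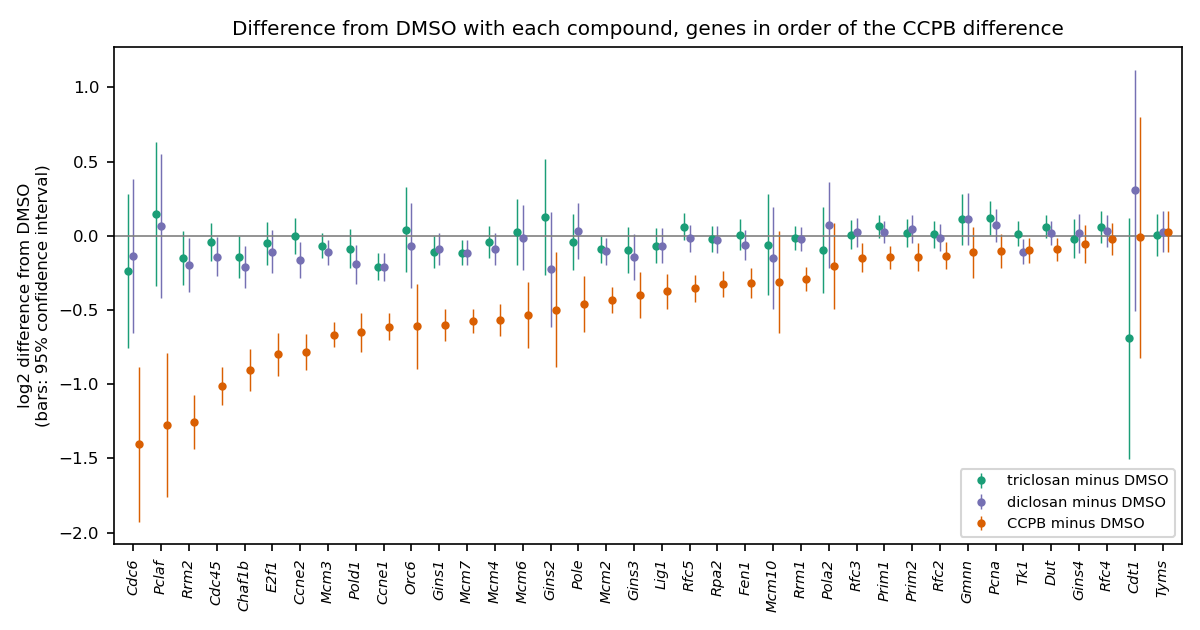
Log2 difference from DMSO in the 38 replication genes with triclosan, diclosan and CCPB, with 95% confidence intervals, ordered by the CCPB difference. The triclosan and diclosan points lie around 0, with medians of -0.021 and -0.064, and the CCPB points reach down to -1.41. Cdt1, above background on 8 of 12 arrays, has the widest intervals.

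The compounds were also set against each other at the same dose and time, in 3 pairs with p-values adjusted over all genes of each pair. Between triclosan and diclosan, which differ by a chlorine atom, 0 of the 38 genes passed (limma; 0% of all genes called). Of the 38, 3 had an unadjusted p under 0.05, namely Tk1, Ccne2 and Cdt1, a share near the 6.8% of all genes. Adding the slide block, 0 passed again (limma; 4 at an unadjusted p under 0.05), against 0.00491% of all genes called and 7.52% under the unadjusted threshold. The differences of triclosan minus diclosan had a median of 0.038 and ran from -0.998 for Cdt1 to 0.35 for Gins2. Outside the dim Cdt1, the intervals of all 37 genes lay between -0.62 and 0.74. Against CCPB, which lacks the hydroxyl group and has a chlorine atom in another position, 30 of the 38 genes were higher with triclosan and 0 lower (9.6% of all genes higher and 10.9% lower), with a median difference of 0.33. The smallest p-values were those of Cdc45 (0.97, limma adjusted p = 5.14e-05), Mcm3 (0.6), Ccne2 (0.78) and Rrm2 (1.11). With the slide block 12 of the 38 genes were higher with triclosan than with CCPB and 0 lower, against 0.761% of all genes higher and 0.639% lower.

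Diclosan differed from CCPB in 26 of the 38 genes, all higher with diclosan (8.12% of all genes higher and 6.2% lower), with a median difference of 0.31. Cdc45 (0.87, limma adjusted p = 7.02e-05), Mcm3 (0.55), Rrm2 (1.06) and Mcm7 (0.46) had the smallest p-values. The mean of both Mcm3 probes gave 0.31 and did not pass (limma adjusted p = 0.0574). With the slide block 19 of the 38 genes were higher and 0 lower, against 2.49% of all genes higher and 2.41% lower. The difference in that model is diclosan replicate 3 minus the CCPB mean, so its calls rest on 1 diclosan array. It is the same contrast as the comparison within slide 2 and not a separate check. On slide 2 alone, where 1 diclosan array stands against 3 CCPB arrays, 0 genes of the set and 0 of all genes passed (limma), 29 of the 38 had an unadjusted p under 0.05 along with 3453 of the 20359, and the median difference of the 38 was 0.29. Among the genes that did not pass in any comparison with CCPB, Tyms had differences from CCPB of -0.022 with triclosan (95% interval -0.16 to 0.12) and 0.00024 with diclosan (-0.14 to 0.14).

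Genes of neighbouring functions outside the set were counted from 5 lists, of which 96 genes were measured. The lists, like the set, were chosen with earlier results of these data known. Of 25 measured other replication factors, 14 were lower and 4 higher with CCPB than with DMSO, with a median difference of -0.17, against 14.2% of all genes lower and 14.1% higher. With the slide as a block 2 were lower and 0 higher, namely Dscc1 and Wdhd1, against 1.79% of all genes lower and 1.63% higher. Wdhd1 was named after its values were seen and was not called without the block (-0.34, limma adjusted p = 0.279; -1.27 with it, adjusted p = 0.0122). The slide step behind the larger difference comes from diclosan replicate 3, whose Wdhd1 level of -2.03 was the highest of all arrays. The other diclosan arrays had -2.86 and -3.065. The CCPB levels were -3.205, -3.14 and -3.02, and the DMSO levels -2.61, -2.915 and -2.82. Dscc1, of an alternative clamp loader, differed by -0.71 (limma adjusted p = 0.000329; 0.0122 with the slide block), the fork protection factor Timeless by -0.45 (adjusted p = 0.000479; 0.0501 with the block) and the origin-firing kinase Cdc7 by -0.78 (adjusted p = 0.00183; 0.0606 with the block). Pold4, a small subunit of polymerase delta, was higher by 0.28 (limma adjusted p = 0.000852) and did not pass with the slide block (adjusted p = 0.073). Of 29 other nucleotide enzymes 4 were lower and 5 higher, shares near the 14.2% and 14.1% of all genes, with a median of -0.018. The one-carbon enzyme Mthfd2 (-0.29) and the pyrimidine synthesis enzyme Cad (-0.32) were lower, and the mitochondrial thymidine kinase Tk2 (0.16) and the purine enzyme Adsl (0.20) were higher (limma adjusted p = 0.00186, 0.00733, 0.00749 and 0.00775 in that order). Adsl alone of this list passed with the slide block (adjusted p = 0.0447).

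Of 23 measured S phase regulators 10 were lower with CCPB than with DMSO and 1 higher, with a median of -0.18, against 14.2% of all genes lower and 14.1% higher. Cyclin A2 (Ccna2) had the deepest difference of this list, at -0.84 (limma adjusted p = 0.000593; 0.0479 with the slide block, as the single call there). The next smallest p-values were those of the G1 kinase Cdk4 (-0.18), its cyclin Ccnd1 (-0.27) and the E2f partner Tfdp2 (-0.32). Ccnd1 differed from DMSO by nearly as much with triclosan (-0.22, limma adjusted p = 0.18) and diclosan (-0.23, adjusted p = 0.234), without a call. With the slide block its differences were -0.16 with CCPB (limma adjusted p = 0.407), -0.22 with triclosan and -0.198 with diclosan. Cdk4 differed by -0.052 with triclosan and -0.029 with diclosan, and Tfdp2 by -0.063 and -0.16. Of 15 mitosis markers 14 were lower (14.2% of all genes) and 0 higher, with a median of -0.69, and 6 were lower with the slide block (1.79%). Among them were Mki67 (-0.73), the checkpoint kinase Bub1 (-0.69), the mitotic kinase Cdk1 (-0.87) and its cyclin Ccnb1 (-0.87), with limma adjusted p-values between 2.43e-05 and 0.000227. Of 4 measured genes of the histone list 2 were lower (14.2% of all genes), H2az1 by -0.18 and H1f0 by -0.10, and 0 with the slide block. Against DMSO, 0 of the 96 genes passed with triclosan and 0 with diclosan (limma), with 0.0639% and 0.00982% of all genes called. At an unadjusted p under 0.05 (limma) were 12 with triclosan and 15 with diclosan, against 11.6% and 10.6% of all genes. With the slide as a block, 1 of the 96 passed for triclosan, with 0.221% of all genes called. That gene was Cdkn2b, which was lower (-0.29, limma adjusted p = 0.0437). For diclosan 0 passed there, with 0.0147% of all genes called. The unadjusted threshold was met by 14 for triclosan and 12 for diclosan. Of all genes, 14.1% and 9.83% were under the unadjusted threshold there.

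**Figure D5:**
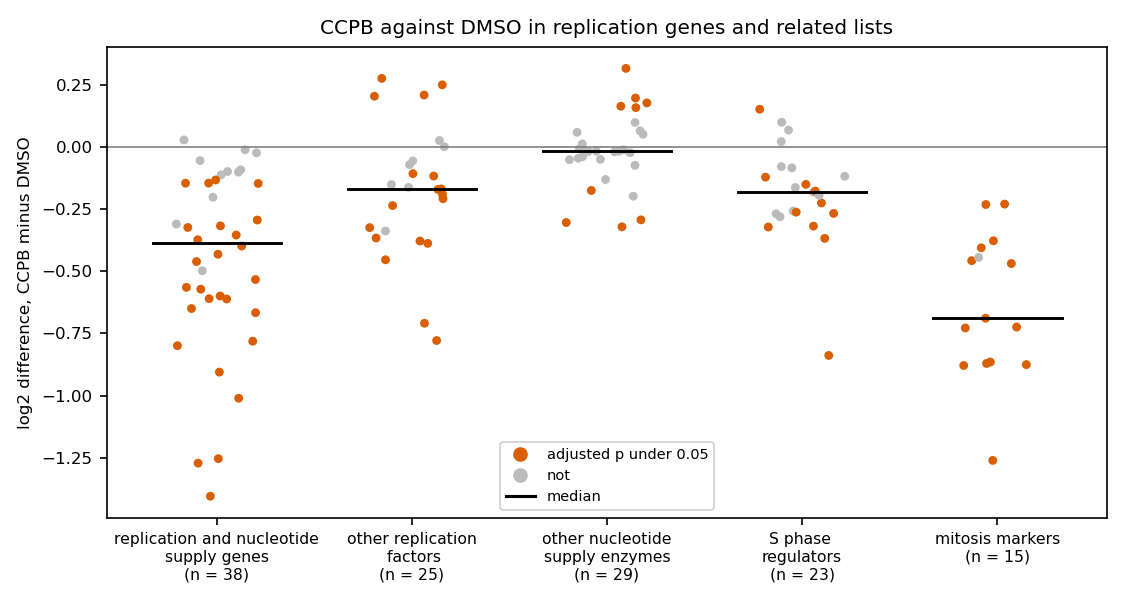
Log2 difference of CCPB minus DMSO for each measured gene of the replication and nucleotide supply set (38) and of 4 related lists, with the list median as a bar. Coloured points had a limma adjusted p under 0.05. The medians are -0.39 for the set, -0.17 for other replication factors, -0.018 for other nucleotide enzymes, -0.18 for S phase regulators and -0.69 for mitosis markers.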

How the data were processed

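The deposited scanner files of 12 one-colour Agilent arrays, read with Feature Extraction 10.7.1.1 per the file headers, gave processed intensity values that the software had background-subtracted; the authors' deposited value table, a linear signal scaled to about 1 at the 75th percentile of each array, served as an alternative. Log2 intensity minus the array's 75th percentile was fitted by group over all 12 arrays with limma 3.58.1 in R 4.3.3. Benjamini-Hochberg adjustment ran over 20359 genes or transcripts in each of 6 comparisons. The model by group was also run on simulated arrays, which held no slide effect and so cannot check the slide. A probe was kept where well above background on all 3 arrays of a group, and the brightest kept probe stood for its gene. Of 45598 probes, 21229 were named through RefSeq transcript accessions. The normexp alternative used spot medians in place of the planned spot means. Every measured gene is named: arrays are given for the 16 smallest p-values and fixed examples, and at most 4 called genes per list. The members and lists were chosen with earlier results of these data known. The number of arrays limits the precision: the median 95% half-width was 0.14 log2 units.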

Additional observations from a re-analysis of the deposited data

How the results depend on the processing

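With the slide as a fixed block the genes called were 13 for CCPB against DMSO and 12 for triclosan against CCPB. With replicate block and slide together they were 10 for CCPB against DMSO, 0 for triclosan against CCPB (limma; 25 at an unadjusted p under 0.05) and 12 for diclosan against CCPB. On slide 2 alone they were 0 for diclosan against CCPB (limma; 29 at an unadjusted p under 0.05), an arm of 1 array assumed to vary like the others. The replicate block alone gave 28 for CCPB against DMSO, 29 for triclosan against CCPB and 25 for diclosan against CCPB; same-numbered arrays of different groups had deviations that correlated between -0.17 and 0.12, so the numbers were not taken as pairs. Leaving out single arrays gave 24 to 26 for CCPB against DMSO, 24 to 27 for triclosan against CCPB, 23 to 27 for diclosan against CCPB and 0 throughout for the other 3 comparisons. The shares of all genes called in these fits and under the replicate block alone are not given here. Their counts therefore describe the set alone. Of the 27 genes lower with CCPB than with DMSO, 27 stayed below 0 in each alternative in which they were tested. The median of the array as centre left 23 of them past the threshold, no filter on dim probes 23, normexp 25, the 2 groups alone 25, the mean of probes 26, and quantile normalization, the authors' table and outlier spots left out 27 each. With probes above background on all 12 arrays Cdc6 was not tested and 26 passed. Prim1 did not pass with the median as centre (limma adjusted p = 0.0965) or without the dim filter (0.0752). Over all genes CCPB against DMSO gave 5760 calls, against 3326 with the median as centre, 2805 without the dim filter, 697 with the slide block and 300 with both blocks. In the same way triclosan against CCPB gave 4176 calls, against 2393, 1389, 285 and 12 in that order, and diclosan against CCPB 2917, against 1372, 1281, 997 and 580. An alternative added after seeing the data left diclosan replicate 3 out of the model by group, and 27 of the 27 passed. In that model this array enters CCPB against DMSO only through the shared spread. The slide step rests on this single array and cannot be estimated without it, so the slide block was not tested this way.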

Other observations

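In 9 of the genes more than 1 probe passed the filter, and each was tested on its own over 24254 probes, a test chosen after seeing the data. The dimmer probes of Mcm2 (-0.32, limma adjusted p = 0.00271) and Lig1 (-0.37, adjusted p = 0.000273) were lower with CCPB than with DMSO, as were their brighter probes. With the slide block the dimmer Mcm2 probe (limma adjusted p = 0.0832) and the brighter Lig1 probe (adjusted p = 0.153) did not pass. The dimmer probes of Mcm3 (-0.26, limma adjusted p = 0.329), Rrm1 (-0.21, adjusted p = 0.207) and Dut (-0.083, adjusted p = 0.301) did not pass.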
